A study of Mus musculus with 93 samples.

Results

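Ttr, Afp, Apoa1, Apob, Apoe, Apom and Trf are 7 genes of secreted carrier proteins that the yolk sac of the embryo, and later the liver, release into the blood. They were taken by name, as 7 of the 33924 gene names in the deposited count tables, with no threshold on a measured value, although earlier results of these data were known. Their RNA was followed in R1 mouse embryonic stem cells, grown with serum and leukaemia inhibitory factor, in 12 of the 93 samples of the series. In set 1, 3 libraries of cells with the Ring1b I53A mutation were compared with 3 libraries of wild type (WT) cells, and the mutation lies in the subunit through which Polycomb repressive complex 1 places ubiquitin on histone H2A. In set 2, 3 libraries labelled H1b/c/d/e-QKO (QKO), a label that names linker histones, were compared with 3 WT libraries. No treatment, time or clone is given for any group, and the labels leave unsaid whether replicates were separate cultures. The p-values therefore speak of the variation among the libraries at hand, and part of it may be technical.

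The visceral endoderm, the outer cell layer of the yolk sac, takes up maternal nutrients by endocytosis and returns them to the embryo bound to carriers of this kind before the liver takes over. Apob is the scaffold around which triglyceride-rich lipoproteins are built, Apoa1 is the main protein of high-density lipoprotein, Apoe is a ligand of lipoprotein receptors, and Apom carries sphingosine-1-phosphate on high-density lipoprotein. Ttr transports thyroid hormone and the retinol-binding protein, Afp is the fetal counterpart of albumin, and Trf carries iron to the transferrin receptor. Ttr and Afp are textbook markers of visceral endoderm, whereas Apoe and Trf are also made by many other cell types.

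The 7 genes did not move together. In I53A cells Apob rose and Apoe and Apom fell, while Ttr and Afp had a few counts where WT cells had almost none. In QKO libraries Apob and Trf rose and Apoe fell slightly, and Ttr was at 0. Apob was called higher in both comparisons, and Apoe was called lower in both, by sizes that differed.

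Promoters of the 3 members called in I53A cells and of Afp are shown, the first because the results turn on them and Afp as a marker of visceral endoderm. Of the 7 members, 5 had an entry in RefSeq's table of gene starts (GRCm38.p6, a later build than that of the count tables), and each sequence below is the 250 bases before the start, 5′ to 3′ on the gene's strand. Capitals mark letters of the motifs searched on both strands, which were AGATAA or AGATAG or TGATAA or TGATAG for GATA factors, TGTTTAC or TATTTAC or TGTTTGC for FOXA factors, and AAAGTCC or AAAGGTC for HNF4.
Apob, chr12:7977427-7977676, plus strand: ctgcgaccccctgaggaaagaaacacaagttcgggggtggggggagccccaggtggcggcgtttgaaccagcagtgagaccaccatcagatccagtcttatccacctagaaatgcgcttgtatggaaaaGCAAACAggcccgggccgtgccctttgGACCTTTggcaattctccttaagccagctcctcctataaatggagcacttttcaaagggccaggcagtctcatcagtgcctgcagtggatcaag
Apoe, first of 3 listed starts, chr7:19699189-19699438, minus strand: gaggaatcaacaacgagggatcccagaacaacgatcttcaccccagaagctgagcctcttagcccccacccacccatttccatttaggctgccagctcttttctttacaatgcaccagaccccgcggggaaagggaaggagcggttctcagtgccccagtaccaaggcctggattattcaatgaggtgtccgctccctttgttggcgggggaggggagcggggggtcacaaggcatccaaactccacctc
Apom, chr17:35131802-35132051, minus strand: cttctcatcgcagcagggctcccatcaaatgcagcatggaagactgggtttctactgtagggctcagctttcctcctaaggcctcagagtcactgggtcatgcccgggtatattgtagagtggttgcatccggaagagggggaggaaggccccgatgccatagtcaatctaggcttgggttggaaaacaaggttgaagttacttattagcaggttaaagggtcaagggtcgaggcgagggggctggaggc
Afp, chr5:90490464-90490713, plus strand: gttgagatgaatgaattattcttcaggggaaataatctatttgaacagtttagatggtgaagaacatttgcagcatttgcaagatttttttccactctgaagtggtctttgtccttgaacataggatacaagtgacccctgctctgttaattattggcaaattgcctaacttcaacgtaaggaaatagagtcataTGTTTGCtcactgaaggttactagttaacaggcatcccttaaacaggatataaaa

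The Apob window held FOXA letters at -121 and HNF4 letters at -94, counted from the start, and the Afp window held FOXA letters at -55. The windows of Apom and of the first Apoe start held none of the motifs searched. Apoa1 (not printed) held GATA letters at -219 and FOXA letters at -88 and -75, and the last listed Apoe start held GATA letters at -29. Among 32851 promoter windows of the same length, 26.5% held the GATA letters, 9.73% the FOXA letters and 6.76% the HNF4 letters. The GC content was 36.0% for Afp, 55.2% for Apob, 57.2% for Apoe and 54.0% for Apom, beside a median of 52.4% over all windows. A match of letters is a description of the sequence and does not show binding.

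In the build of the count tables (mm9), the exons of Apob lie on chromosome 12 between 7984454 and 8023641, those of Apoe on chromosome 7 between 20281458 and 20284515, and those of Apom on chromosome 17 between 35265942 and 35268995. Afp spans 90919740 to 90937933 on chromosome 5, Apoa1 46036663 to 46038549 and Trf 103092538 to 103132774 on chromosome 9, and Ttr 20823751 to 20832825 on chromosome 18. Trf shares 888 exon bases, 21.0% of its exon length, with Srprb on the same strand, so some Trf reads may be lost or of uncertain origin. Ttr shares 11 exon bases with Gm16090 on the other strand, and the other 5 members share none.

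Depth ranged from 12585621 to 23378930 counts per library, and all replicate pairs differed by more than sampling noise. Replicate 3 of set 1 stood apart in both groups, by a chi-square per degree of freedom that grows with the difference between 2 libraries. Against replicates 1 and 2 it gave 21.2 and 24.2 in I53A and 24.1 and 27.3 in WT. Replicates 1 and 2 gave 4.06 in I53A and 2.93 in WT, and pairs in set 2 gave at most 4.41. Rnf2, the gene of Ring1b, stood at 98.4, 95.9 and 84.0 CPM (counts relative to the library total) in I53A libraries and at 194.1, 190.3 and 176.4 CPM in WT libraries, although a point mutation need not change RNA and these values do not check the label. None of the 4 H1 genes named by the QKO label lay wholly below WT in those libraries. With scaling over all 12 libraries Hist1h1b stood at 2.78, 3.43 and 3.54 CPM in QKO and at 0.246, 0.528 and 0.0990 CPM in WT, above it in each library. Hist1h1c stood at 7.81, 8.36 and 9.94 CPM in QKO and at 8.80, 10.1 and 10.1 CPM in WT, with a lower mean in QKO and overlapping groups. Hist1h1d, at 0.673, 0.454 and 0.246 CPM in QKO and 0.615, 0.176 and 0.693 CPM in WT, and Hist1h1e, at 0.538, 0.194 and 0.344 CPM in QKO and 0.369, 0 and 0.0990 CPM in WT, overlapped as well. These values do not bear out the label, and they cannot refute it either. Reads outside a deleted part of a gene would still be counted, and Hist1h1d and Hist1h1e had at most 15 counts in any of these libraries. The groups are called libraries labelled QKO, or QKO libraries for short. The 10 markers of embryonic stem cells had counts in all libraries, with summed levels of 5006 to 5570 CPM in I53A, 5881 to 6662 in WT of set 1, 8235 to 8357 in QKO and 7295 to 7424 in WT of set 2.

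Apoe dominated the group in all 12 libraries. Reads per kilobase of exon at a common library size (RPKM), which allow levels of different genes to be set side by side, averaged 112.5 ± 22.2 for Apoe in I53A cells and 384.3 ± 70.4 in WT cells of set 1 (SD, n = 3 in each group), and 107.9 ± 1.41 in QKO libraries and 128.8 ± 6.31 in WT libraries of set 2. Apoe alone made up 88.7% to 93.5% of the members' counts in I53A libraries and 97.0% to 98.2% in their WT libraries, and 83.1% to 83.6% in QKO libraries and 89.0% to 90.0% in theirs. Trf came next in each group, at 3.47 ± 0.376 RPKM in I53A, 3.14 ± 0.196 in WT of set 1, 8.49 ± 0.347 in QKO and 6.71 ± 0.713 in WT of set 2. Apom followed, at 0.883 ± 0.326 RPKM in I53A and 2.38 ± 1.03 in WT of set 1, where its libraries overlapped those of Trf, and at 0.490 ± 0.0995 in QKO and 0.281 ± 0.128 in WT of set 2.

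Below these 3 genes the order differed between groups. In I53A cells Ttr (0.336 ± 0.154 RPKM), Afp (0.238 ± 0.0686) and Apob (0.215 ± 0.0440) followed, and each overlapped its neighbour in that order, with Apoa1 last at 0.0723 ± 0.0667. In WT cells of set 1 the order was Apoa1 (0.220 ± 0.0443), Apob (0.0922 ± 0.0216), Afp (0.0284 ± 0.0261) and Ttr, which had no count. In QKO libraries Apob (0.450 ± 0.0444) overlapped Apom, and Apoa1 (0.134 ± 0.0697) and Afp (0.0382 ± 0.0488) followed. In WT libraries of set 2 the same genes stood at 0.121 ± 0.0179, 0.0725 ± 0.0413 and 0.0295 ± 0.0511 RPKM, and Ttr was at 0 in both groups of set 2.

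**Figure D1:**
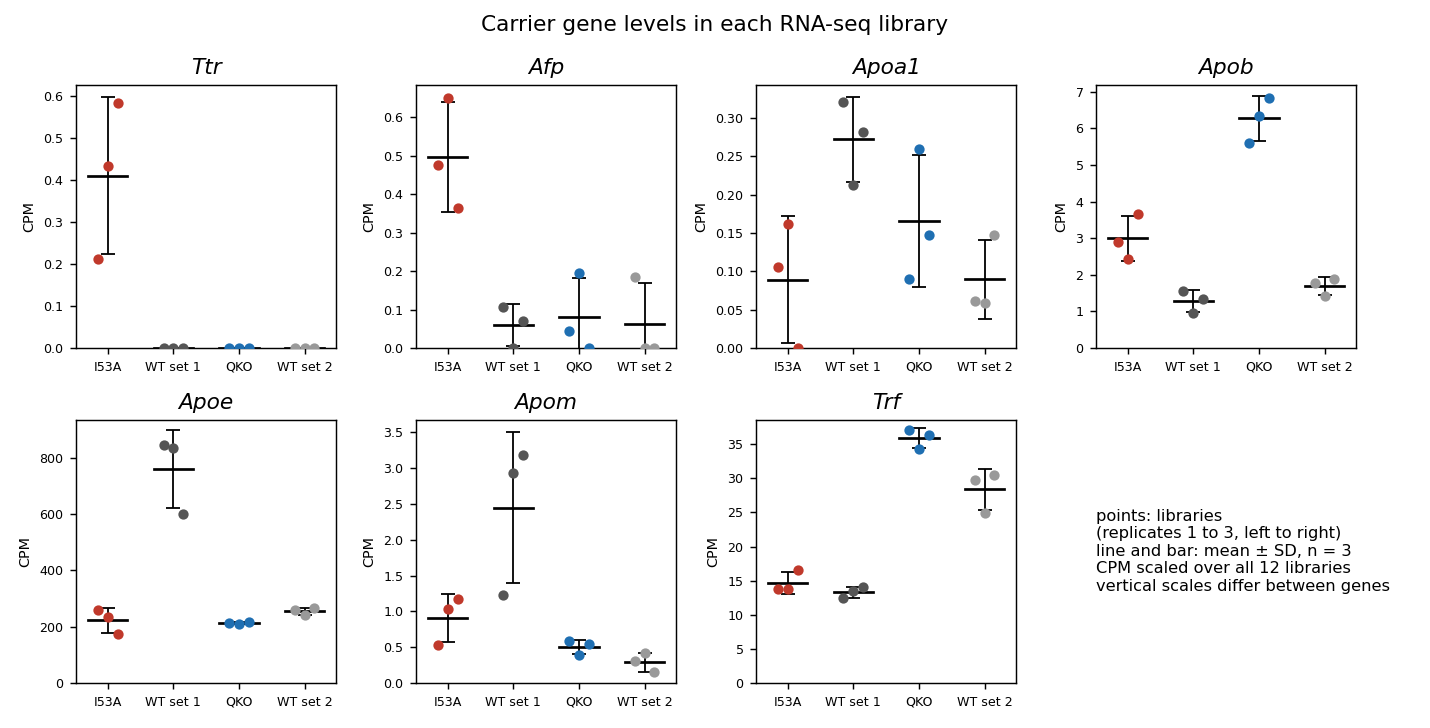
Level of each carrier gene in each library, in CPM scaled over all 12 libraries (vertical axes start at 0 and differ between genes); points are libraries, lines and bars the mean ± SD of 3. The WT libraries of set 1 stand apart for Apoe at 600.1 to 848.1 CPM, the I53A libraries for Ttr, and the QKO libraries for Apob at 5.61 to 6.84 CPM.

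Set 1 asks how expression differs once the catalytic subunit Ring1b is mutated. Of the 7 carriers, 4 had enough counts to be tested across 15536 genes, and edgeR's quasi-likelihood test called 1 higher (Apob) and 2 lower (Apoe and Apom). It called 35.5% of all genes tested at an adjusted p under 0.05, 18.1% higher and 17.4% lower. With the replicate number as a block, 8798 genes were called in place of 5512, and the calls of these 4 members did not change.

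Apob stood at 3.06, 2.53 and 3.87 CPM in I53A libraries and at 1.64, 1.01 and 1.44 CPM in WT libraries (with scaling within the set, as for all CPM beside a fold change). All I53A libraries lay above all WT libraries. The means were 3.15 ± 0.673 CPM in I53A and 1.37 ± 0.321 CPM in WT (SD, n = 3), a 2.32-fold rise (log2 fold change 1.21 ± 0.29 SE, edgeR adjusted p = 0.0134). These levels rest on 150 counts in I53A and 66 in WT, and without WT replicate 2 the call was lost (log2 fold change 1.02, edgeR adjusted p = 0.0521).

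Apoe stood at 272.3, 244.7 and 184.5 CPM in I53A libraries and at 897.3, 882.2 and 645.6 CPM in WT libraries. Replicate 3 was the lowest library in each group, and the highest I53A library lay far below the lowest WT library. The means were 233.8 ± 44.9 CPM in I53A and 808.4 ± 141.2 CPM in WT, and the log2 fold change was -1.78 ± 0.17 (edgeR adjusted p = 2.2e-04), so that WT levels were 3.43 times those of I53A. Paired by replicate number, the log2 ratios were -1.72, -1.85 and -1.81. The tables of replicate 3 are named in another style than those of replicates 1 and 2, and on replicates 1 and 2 alone the log2 fold change was -1.78 for Apoe, -1.42 for Apom and 1.08 for Apob, and all 3 calls held.

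In a bulk sample, fewer cells of a type and less RNA per cell cannot be told apart. Macrophages are a rich source of Apoe, and of 12 macrophage markers 10 had counts in I53A libraries and 7 in WT libraries, with summed levels of 22.3 to 24.8 CPM in I53A and 42.5 to 47.2 CPM in WT. Most of that sum was Cd68, a lysosomal protein gene, at 14.4 CPM in I53A and 38.8 CPM in WT. Itgam, the next largest, went the other way, at 8.18 CPM in I53A and 5.71 CPM in WT. The complement genes C1qb and C1qc were at 0 in both groups, and C1qa, Emr1 and Tyrobp were at 0 in WT. The part of these markers in the Apoe values was not tested. Apoc1, which lies beside Apoe in the apolipoprotein cluster and was picked after its values were seen, averaged 13.9 ± 3.59 CPM in I53A and 16.4 ± 1.41 CPM in WT. Its groups overlapped (log2 fold change -0.22 ± 0.19, edgeR adjusted p = 0.395). The other Apoc genes had too few counts to be tested. Apoc4 had 0 counts in I53A and 13 in WT, Apoc2 had 11 in each group, and Apoc3 had 0 in each.

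Apom stood at 0.556, 1.07 and 1.24 CPM in I53A libraries and at 1.30, 3.10 and 3.42 CPM in WT libraries. Replicate 1 was the lowest in each group, and the highest I53A library lay just under the lowest WT library. The means were 0.955 ± 0.356 CPM in I53A and 2.61 ± 1.14 CPM in WT (log2 fold change -1.44 ± 0.46, edgeR adjusted p = 0.0397), from 45 counts in I53A and 123 in WT. The call depended on single libraries, since edgeR's adjusted p was 0.134 without I53A replicate 1, 0.0899 without I53A replicate 2, 0.121 without WT replicate 2 and 0.0822 without WT replicate 3, with a log2 fold change between -1.77 and -1.15 over all libraries left out in turn.

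Trf stood at 14.4, 14.4 and 17.5 CPM in I53A libraries and at 13.1, 14.3 and 15.0 CPM in WT libraries, and the groups overlapped. Its log2 fold change was 0.14 ± 0.13 (edgeR adjusted p = 0.472), a difference that was not detectable beside the spread of the replicates. Srprb, with which Trf shares exon bases, stood at 31.6, 29.0 and 39.5 CPM in I53A and at 24.3, 25.0 and 26.7 CPM in WT, and was called higher (log2 fold change 0.41 ± 0.13, edgeR adjusted p = 0.0445).

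Ttr, Afp and Apoa1 had too few counts for the filter and were not part of that fit. Ttr had 4, 8 and 8 counts in I53A libraries and 0 in each WT library. The groups did not overlap, and against a floor of 3 counts over the WT group Ttr was at least 6.78-fold higher in I53A. Afp had 9, 12 and 5 counts in I53A libraries and 2, 0 and 1 in WT libraries, a ratio of 8.81 (95% exact counting interval 2.70 to 45.5) with groups that did not overlap. Apoa1 had 2, 3 and 0 counts in I53A libraries and 6, 4 and 4 in WT libraries, and its groups did not overlap either. Its ratio was 0.363, with an interval, 0.102 to 1.07, that includes 1. The exact two-sided permutation test gave p = 0.1 for each of these 3 genes, the smallest value that 3 libraries against 3 allow. Without the filter on low counts edgeR called Ttr (adjusted p = 0.0124) and Afp (adjusted p = 0.0358) higher in I53A but not Apoa1 (adjusted p = 0.376). The counting intervals cover counting error only.

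Most visceral endoderm markers tested rose in I53A, and most of those tested in QKO rose as well, where Ttr was at 0. Of 13 tested in I53A, 10 rose, Hnf4a fell, and Vil1 (log2 fold change -0.05, edgeR adjusted p = 0.847) and Npc1l1 (-0.10, edgeR adjusted p = 0.895) were not called. In I53A most of the summed level was Lrp2 (306.5 CPM, and 54.9 CPM in WT), Cubn and Dab2. All 14 of these markers had counts in I53A libraries, with summed levels of 803.3 to 888.5 CPM, and 13 had counts in WT libraries, with sums of 76.9 to 83.2 CPM and Apoa4 at 0. Parietal endoderm markers summed to 3209 to 3418 CPM in I53A and 646.6 to 679.8 CPM in WT, with all 14 detected in both. Hepatocyte markers summed to 4.07 to 5.18 CPM in I53A (14 of 16 with counts, G6pc and Serpina1c at 0) and 1.97 to 2.84 CPM in WT (13 of 16, with Alb, Serpina1c and Apcs at 0). The part of these markers in the values of Ttr, Afp, Apob or Apoa1 was not tested.

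The same lists were read for fibroblasts, trophoblast, and glia with choroid plexus, a tissue that makes Ttr in the adult brain. Fibroblast markers summed to 63.5 to 67.6 CPM in I53A and 29.0 to 29.8 CPM in WT (12 and 9 of 13 with counts), and trophoblast markers to 28.2 to 33.5 CPM in I53A and 12.9 to 16.4 CPM in WT (10 and 9 of 11). Glia and choroid plexus markers summed to 103.9 to 104.6 CPM in I53A and 85.1 to 92.3 CPM in WT, with all 12 detected in both.

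**Figure D2:**
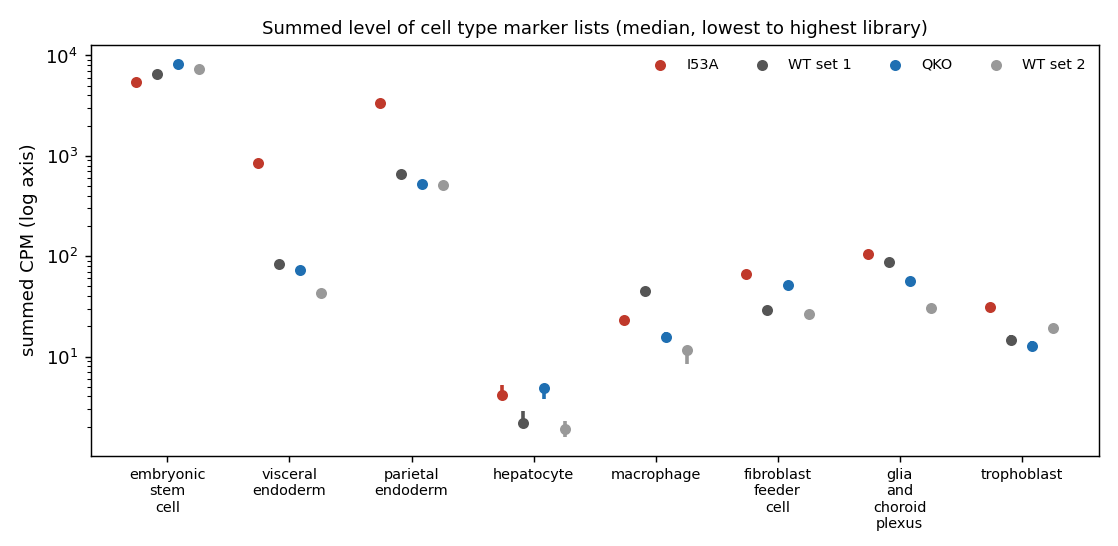
Summed level of each cell type marker list in CPM (log axis), scaled over all 12 libraries; points are medians of 3 libraries and bars run from the lowest to the highest library. I53A stands apart for visceral endoderm (803.3 to 888.5 CPM) and parietal endoderm (3209 to 3418 CPM), and hepatocyte markers reach at most 5.18 CPM.

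Set 2 asks which genes differ in cells labelled as lacking linker histones. Here 3 of the 7 members were tested across 15439 genes, and edgeR called 2 higher (Apob and Trf) and 1 lower (Apoe). It called 57.7% of all genes tested, 28.7% higher and 29.0% lower, so a call by itself was common in this comparison.

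Apob stood at 5.31, 6.05 and 6.47 CPM in QKO libraries and at 1.68, 1.33 and 1.78 CPM in WT libraries. Every QKO library lay above the WT libraries by more than the spread within either group. The means were 5.94 ± 0.586 CPM in QKO and 1.60 ± 0.236 CPM in WT, a 3.73-fold rise (log2 fold change 1.90 ± 0.20, edgeR adjusted p = 6.5e-12), with 362 counts in QKO and 91 in WT. Under all alternatives run the log2 fold change lay between 1.78 and 1.98.

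Trf stood at 35.1, 32.7 and 34.4 CPM in QKO libraries and at 27.9, 23.5 and 28.9 CPM in WT libraries, with no overlap. The means were 34.1 ± 1.27 CPM in QKO and 26.8 ± 2.85 CPM in WT, a 1.29-fold rise (log2 fold change 0.36 ± 0.07, edgeR adjusted p = 4.2e-05). Srprb, which shares exon bases with Trf, averaged 20.5 ± 1.28 CPM in QKO and 21.8 ± 2.45 CPM in WT (log2 fold change -0.08 ± 0.09, edgeR adjusted p = 0.478).

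Apoe stood at 202.2, 201.1 and 204.9 CPM in QKO libraries and at 244.1, 227.6 and 250.5 CPM in WT libraries. All QKO libraries lay below all WT libraries, though the distance was small. The means were 202.8 ± 1.98 CPM in QKO and 240.7 ± 11.8 CPM in WT, WT levels being 1.18 times those of QKO (log2 fold change -0.23 ± 0.04, edgeR adjusted p = 4.9e-06). With the spread taken from all 12 libraries the call was lost (log2 fold change -0.24, edgeR adjusted p = 0.194).

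The other 4 members had few counts. Apom had 13, 6 and 11 counts in QKO libraries and 5, 7 and 3 in WT libraries, with overlapping groups and a ratio of 1.90 (95% counting interval 0.993 to 3.81). Apoa1 had 2, 4 and 3 counts in QKO and 1, 1 and 3 in WT (ratio 1.71, interval 0.516 to 6.51), and Afp had 1, 3 and 0 in QKO and 3, 0 and 0 in WT (ratio 1.27, interval 0.215 to 8.66). The exact two-sided permutation p was 0.2 for Apom, 0.3 for Apoa1 and 0.7 for Afp. Ttr was not detected in any of these 6 libraries, which allows up to 0.0497 CPM over the QKO group and 0.0522 CPM over the WT group.

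The marker lists were read in set 2 as well. Of 10 visceral endoderm markers tested there, 8 were called higher and 0 lower in QKO (median log2 fold change 1.03), beside 28.7% of all genes tested called higher. Ttr was at 0 in these libraries, and the Afp groups overlapped. Visceral endoderm markers summed to 72.2 to 74.5 CPM in QKO libraries and 41.8 to 45.1 CPM in WT libraries (13 of 14 with counts in each, Apoa4 at 0), hepatocyte markers to 3.79 to 4.92 CPM in QKO and 1.58 to 2.29 CPM in WT (13 and 7 of 16, with Serpina1c and Apcs at 0 in both and Alb at 0 in WT), and macrophage markers to 15.0 to 17.5 CPM in QKO and 8.39 to 11.9 CPM in WT (8 and 7 of 12, with the C1q genes at 0 in both). Fibroblast markers summed to 51.2 to 52.1 CPM in QKO and 25.9 to 26.9 CPM in WT (11 and 6 of 13), and trophoblast markers to 12.4 to 14.4 CPM in QKO and 17.8 to 19.2 CPM in WT (7 of 11 in each). Glia and choroid plexus markers summed to 55.1 to 59.3 CPM in QKO and 30.1 to 31.1 CPM in WT (11 of 12 in each). The sums of parietal endoderm markers overlapped, at 508.5 to 525.1 CPM in QKO and 499.5 to 532.7 CPM in WT, but single genes differed. Of 12 tested, 6 were called higher and 2 lower in QKO (median log2 fold change 0.41), beside 28.7% and 29.0% of all genes tested. Sparc averaged 164.6 CPM in QKO and 102.4 CPM in WT, and Nid1 102.9 CPM in QKO and 165.0 CPM in WT. The part of these markers in the Apob and Trf values was not tested.

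The effects of I53A and of the QKO label were compared in 1 fit over all 12 libraries, as the I53A log2 change minus the QKO log2 change. That test called 36.1% of 16501 genes, and of the 4 members it covered it called Apoe and Apom. For Apoe the difference was -1.52 ± 0.19 (edgeR adjusted p = 9.1e-05), the fall in I53A being the larger. For Apom it was -2.28 ± 0.71 (edgeR adjusted p = 0.0203), and without QKO replicate 1 or without WT replicate 3 of set 2 this call was lost (edgeR adjusted p = 0.0531 and 0.0582). For Apob (-0.67 ± 0.34, edgeR adjusted p = 0.133) and Trf (-0.21 ± 0.15, edgeR adjusted p = 0.308) a difference between the effects was not detectable, which does not show that the effects were alike.

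**Figure D3:**
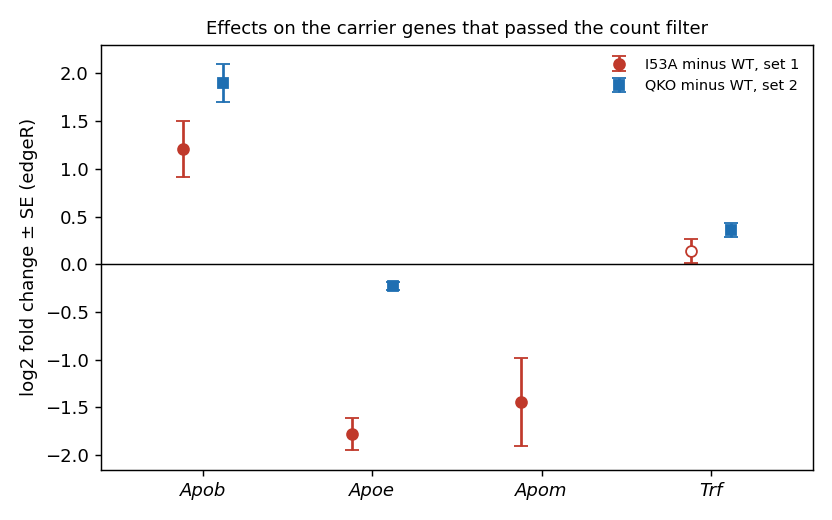
Log2 fold change ± SE of the carrier genes tested, I53A minus WT in set 1 (circles) and QKO minus WT in set 2 (squares); filled symbols passed edgeR's adjusted p under 0.05. Apob lies above 0 in both comparisons (1.21 and 1.90), Apoe lies at -1.78 and -0.23, and Apom was tested within set 1 alone.

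The WT groups themselves differed between the sets. With scaling over all 12 libraries, Apoe stood at 848.1, 834.5 and 600.1 CPM in WT of set 1 and at 259.5, 241.0 and 264.8 CPM in WT of set 2, a ratio of the means of 2.98. The I53A libraries, at 259.3, 235.0 and 174.1 CPM, overlapped the WT libraries of set 2 and the QKO libraries, which stood at 213.6, 211.0 and 216.6 CPM. On the same scale Apom was 8.47 times higher in WT of set 1 than in WT of set 2, and Trf was 2.13 times higher in WT of set 2 than in WT of set 1, with no overlap for either gene. Apob overlapped between the WT groups. The set, its alignments and any difference between the cells cannot be told apart, and these ratios were not tested.

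Related genes put the carriers in their pathways. They were read from lists as counts of calls in the fits above, beside a median log2 fold change of 0.00 over all genes tested in either comparison. Over all genes tested, 18.1% were called higher and 17.4% lower in I53A, and 28.7% higher and 29.0% lower in QKO. The counts of each list are to be read beside these shares, and no list was tested as a set. A list gene with next to no reads in WT passed the filter only where reads of the other genotype lifted it, so the counts describe the genes tested.

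Lipoprotein assembly and other apolipoproteins came first. Of 30 such genes in the annotation 20 were tested in I53A, of which 10 rose and 2 fell (median 0.32), and 20 in QKO, of which 9 rose and 4 fell (median 0.17). Dgat2, which makes triglyceride, rose to 32.3 ± 5.83 CPM in I53A, against 3.57 ± 0.748 CPM in WT (log2 fold change 3.20 ± 0.20), and to 20.9 ± 2.06 CPM in QKO, against 6.20 ± 0.891 CPM in WT (1.76 ± 0.11). Mttp, the transfer protein that loads lipid onto Apob, rose to 15.3 ± 1.29 CPM in I53A, against 4.95 ± 1.01 CPM in WT (1.63 ± 0.17), and to 16.9 ± 1.60 CPM in QKO, against 9.33 ± 1.63 CPM in WT (0.87 ± 0.11). Apol6 rose by 0.95 ± 0.30 on the log2 scale in I53A. Pltp, which transfers phospholipid between lipoproteins, fell to 10.3 ± 0.384 CPM in I53A, against 32.0 ± 3.88 CPM in WT (-1.61 ± 0.12), and Apobec1, the enzyme that edits Apob RNA, fell to 10.7 ± 0.903 CPM, against 19.4 ± 2.17 CPM in WT (-0.85 ± 0.13). The edgeR adjusted p-values of the genes named here ran from 1.6e-19 (Dgat2 in QKO) to 0.0409 (Apol6 in I53A).

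Receptors for the carriers were all expressed well enough to be tested. Of 16 genes 8 rose and 2 fell in I53A (median 0.40), and 7 rose and 6 fell in QKO (median -0.03). Cubn, which with Amn forms the endocytic receptor that takes up Apoa1 and other ligands, rose to 312.3 ± 12.5 CPM in I53A, against 1.42 ± 0.549 CPM in WT, a 216.1-fold rise. Its partners Amn (22.3-fold) and Dab2, an adaptor of clathrin-coated pits (39.9-fold), rose with it. In QKO the rise of Cubn was 4.99-fold, at 3.74 ± 0.390 CPM in QKO and 0.772 ± 0.541 CPM in WT, and Stab2, a scavenger receptor, rose by 2.88 ± 0.44 on the log2 scale. The sorting receptors Sort1 (log2 fold change -1.29 ± 0.11) and Sorl1 (-0.75 ± 0.09) fell in I53A, and Lrp8, a receptor of Apoe, fell in QKO (-0.98 ± 0.10). The edgeR adjusted p-values of these calls lay between 1.4e-12 (Lrp8 in QKO) and 5.8e-04 (Sorl1 in I53A).

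A few receptors were picked after their values were seen, as direct partners of the members. Tfrc, the receptor of Trf, averaged 469.9 ± 26.4 CPM in I53A and 208.0 ± 19.7 CPM in WT (log2 fold change 1.19 ± 0.09, edgeR adjusted p = 4.1e-05), and 471.3 ± 6.16 CPM in QKO and 499.3 ± 30.3 CPM in WT (edgeR adjusted p = 0.146). Lrp2, the large receptor that works with Cubn, averaged 321.7 ± 32.1 CPM in I53A and 58.3 ± 2.73 CPM in WT (edgeR adjusted p = 1.2e-06).

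Other plasma proteins of yolk sac and liver were mostly too low to test. Of 34 genes, 5 were at 0 in all 6 libraries of set 1 and 6 in those of set 2. Of the 34, 9 were tested in I53A, where 6 rose and 0 fell (median 1.05), and 10 in QKO, where 6 rose and 1 fell (median 0.83). Rbp4, the retinol carrier that travels bound to Ttr, rose to 4.94 ± 1.01 CPM in I53A, against 1.86 ± 0.431 CPM in WT (edgeR adjusted p = 0.00397). Itih5 rose by 2.14 ± 0.42 on the log2 scale in I53A and by 2.96 ± 0.32 in QKO, the protease inhibitor gene A2m rose by 1.10 ± 0.13 in I53A, and complement C3 rose to 3.06 ± 0.626 CPM in QKO, against 0.142 ± 0.0880 CPM in WT. Fetub fell by 0.68 on the log2 scale in QKO. Alb, the gene of albumin, had a count in only 1 I53A library (0.0774 CPM) and 1 QKO library (0.0617 CPM), and in none of the WT libraries. By edgeR the adjusted p-values of these named calls were at most 0.00552.

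Endoderm and liver transcription factors split in I53A. Of 25 genes 21 were tested there, of which 9 rose and 5 fell (median 0.46), while in QKO 15 were tested and 5 rose and 2 fell (median 0.15). Foxa2 rose to 5.40 ± 0.686 CPM in I53A, against 0.100 ± 0.0600 CPM in WT, Gata6 to 30.0 ± 5.68 CPM, against 0.806 ± 0.281 CPM, and Sox17 to 21.6 ± 4.81 CPM, against 0.623 ± 0.204 CPM. Hnf4a, a regulator of apolipoprotein genes in liver and visceral endoderm, fell to 3.95 ± 0.336 CPM in I53A, against 10.2 ± 0.313 CPM in WT (log2 fold change -1.35 ± 0.15, edgeR adjusted p = 3.1e-04). In QKO Hnf4a rose to 10.4 ± 0.904 CPM, against 2.54 ± 0.236 CPM in WT (2.04 ± 0.15, edgeR adjusted p = 9.3e-17). Apob was called higher in both comparisons, and the part of Hnf4a in its values was not tested. Cebpa rose (1.10 ± 0.21) and Hhex fell (-0.78 ± 0.14) in QKO.

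Iron handling genes accompany Trf. Of 17 genes 14 were tested in each comparison, and 5 rose and 1 fell in I53A (median 0.10), while 6 rose and 5 fell in QKO (median -0.03). Slc40a1, the iron exporter ferroportin, rose to 6.97 ± 0.749 CPM in I53A, against 0.943 ± 0.279 CPM in WT (edgeR adjusted p = 1.0e-04). Hfe rose in both comparisons (1.19 ± 0.37 in I53A and 0.98 ± 0.28 in QKO), and Slc11a2, the importer of divalent metals, rose in I53A (0.82 ± 0.14). Slc39a14, a metal importer, fell by 0.89 on the log2 scale in I53A and rose by 0.86 in QKO. Mfi2, the gene of the transferrin relative melanotransferrin, fell to 1.01 ± 0.144 CPM in QKO, against 2.59 ± 0.219 CPM in WT. The edgeR adjusted p-values of these calls were at most 0.036.

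**Figure D4:**
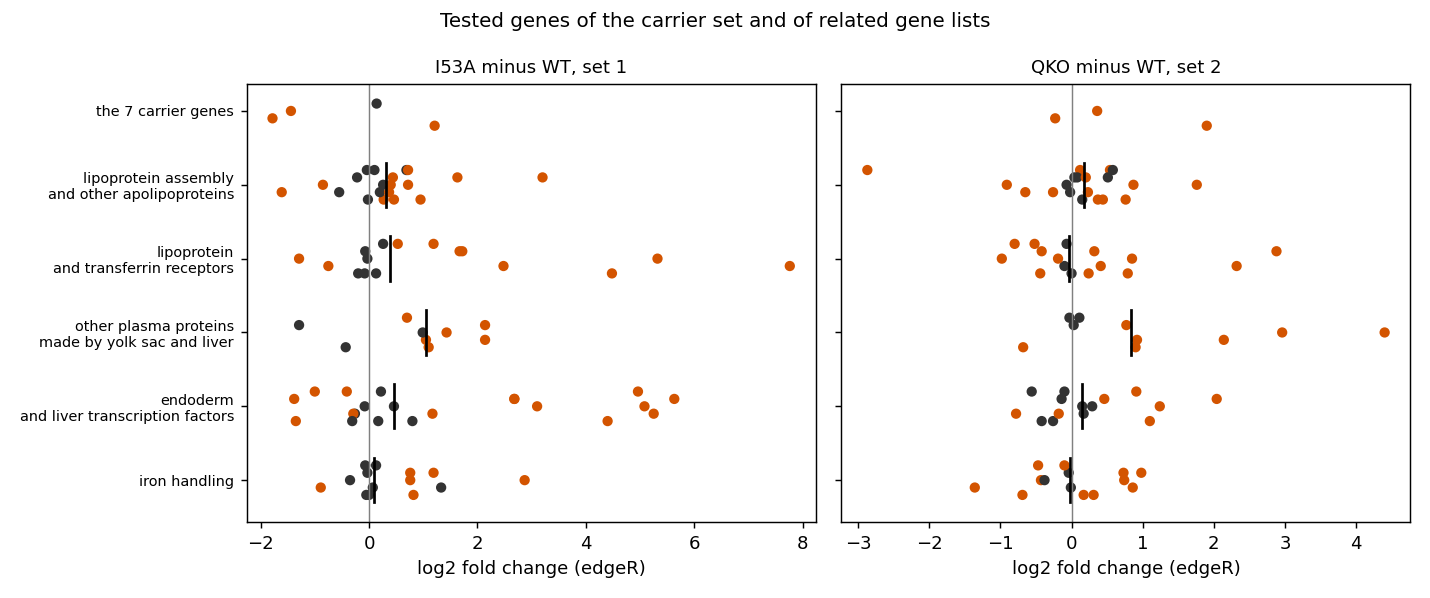
Log2 fold change of each tested gene of the 7 carriers and of the related lists, I53A minus WT in set 1 (left) and QKO minus WT in set 2 (right); orange points passed edgeR's adjusted p under 0.05, dark points did not, and the bar is the median of a list. The receptor list reaches 7.76 (Cubn) in I53A, whereas the tested carriers lie between -1.78 and 1.90 over both panels.

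Genes with the pattern most like that of each tested carrier were named by the root mean square difference of log2 CPM over the 12 libraries, each taken relative to the WT mean of its set, among 13238 genes. The nearest were Rbm11 (0.18) and Pabpc6 (0.22) for Apob, Slit2 (0.15) and Tbc1d9 (0.18) for Apoe, P2rx2 (0.37) and Zbtb20 (0.37) for Apom, and Mrpl3 (0.08) and Thop1 (0.08) for Trf. Slit2, a secreted guidance cue, had a log2 fold change of -1.83 in I53A (edgeR adjusted p = 5.2e-04) and -0.10 in QKO (edgeR adjusted p = 0.424). Small distances are easier to reach for genes with small effects, as for Trf. Zbtb20 also belongs to the list of transcription factors above. The likeness is a description of these libraries.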

How the data were processed

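RNA was extracted with TRIzol and libraries followed the Illumina TruSeq procedure, per the labels' protocols. The authors deposited raw counts per gene, made by featureCounts 1.6.3 from paired ends on the GENCODE M1 annotation of mm9, per the file headers, with no option set for strand, multiple alignments or overlapping genes. The submitters' processing notes name HISAT2, and the file headers name TopHat alignments for set 1 only, so the aligner of each set is not settled.

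Counts were TMM-scaled and tested with edgeR 4.0.16 (R 4.3.3; quasi-likelihood, robust, filterByExpr), two-sided, with Benjamini-Hochberg adjustment over all genes tested and a threshold of 0.05, and the procedure was tested on simulated data. CPM and RPKM were computed from the deposited counts. The SE of a log2 fold change was derived from the test, as its absolute value over the square root of edgeR's F statistic. DESeq2 1.42.0, other scalings and filters, a replicate block and leaving out each library were alternatives. Some genes of the lists and 1 motif are not reported here. In set 1, deviations from the group mean correlated between libraries of the same replicate number (0.23, 0.26 and 0.49). I53A replicate 1 matched WT replicate 2 best, however. Replicate 3 stood apart in both groups, so these correlations do not show that replicates 1 and 2 were paired. The promoter windows were read from RefSeq's table, and assays of chromatin were not used here. List genes were named by size of change (adjusted p under 0.05 and, in the higher group, 1 CPM or more, up to 3 rises and 2 falls in I53A and up to 2 and 1 in QKO). The members, lists and tests were chosen with earlier results of these data known.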

Additional observations from a re-analysis of the deposited data

Results flagged for a closer look

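Apoe and Apom differed between the effects of I53A and of the QKO label by edgeR's test of the difference itself. For Apoe the difference (I53A change minus QKO change, log2) was -1.52, with changes of -1.78 in I53A and -0.23 in QKO, and it passed the threshold under all 18 alternatives run. For Apom it was -2.28, with 45 counts in I53A and 123 in WT of set 1, and with 30 in QKO and 15 in WT of set 2. The WT libraries of set 1 were the highest of all 4 groups for both genes, and in the difference the genotype cannot be told apart from the set it was measured in.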

How the results depend on the processing

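Of the members with a fitted fold change (Apob, Apoe, Apom and Trf, with Apom not fitted within set 2), none reversed its direction under the alternatives run. The number of genes called in I53A was 5512 and became 8798 with the replicate block and 8343 on replicates 1 and 2 alone, and it lay between 3828 and 5917 when 1 library was left out. The cause of the higher counts was not tested. Members called in I53A were 3, became 5 with no filter on low counts (Ttr and Afp were added), and ranged from 1 to 3 without 1 library, with 1 left without WT replicate 2. For the difference between effects 2 members were called, and 1 to 2 without 1 library. In set 2 the replicate numbers did not pair the samples (correlations 0.02, 0.00 and 0.04), 1 of the 3 numbers matched its own best, and a replicate block called 9080 genes in place of 8903. The block changed no member's call in either set. Apoe in I53A stayed between -1.91 and -1.64 under 14 alternatives, and Apob in I53A between 1.02 and 1.37. Depth limits Ttr, Afp, Apoa1 and, in set 2, Apom, whose counts per library did not exceed 13.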
